A study of Mus musculus with 8 samples.

Results

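For mouse N2a neuroblastoma cells with Grp94 knockdown, the authors listed the transcript clusters that passed their test against an empty vector. Of 10 named genes of the oxygen-sensing pathway 8 were listed, and all 8 were lower than with the empty vector. The 10 genes were Egln1, Egln3, Kdm3a, Ankrd37, Mxi1, Bhlhe40, Vegfa, Adm, Ndrg1 and Ddit4, and they were found by their symbols in the table of the comparison. They matched 9 of its 2395 transcript clusters, since Ankrd37 has 2. Of all 2395 transcript clusters, 59.9% were lower in the knockdown. A transcript cluster is the group of array probes that stands for one transcribed region. Kdm3a and Adm had no transcript cluster in the table, which says only that they were not listed. The share of all transcript clusters of the array that were listed was not at hand. Numbers of listed among searched genes, here and below, are therefore not read as a result. The genes were chosen with results of these data known, so their differences are given as a description with no test.

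Cells adapt to low oxygen mainly through the hypoxia-inducible factors (HIF), in which an oxygen-labile alpha subunit pairs with a stable partner and binds a short DNA core in its target genes. When oxygen is plentiful, prolyl hydroxylases of the EGLN family mark the alpha subunit for destruction by the VHL ubiquitin ligase. HIF in turn activates genes of glucose metabolism and growth of blood vessels and also genes that restrain it, among them its own hydroxylases, transcriptional repressors and an inhibitor of mTORC1, which makes a feedback loop.

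The groups were 4 arrays of cells transfected with an empty vector and 4 arrays of cells transfected with miR RNAi vectors against Grp94. Grp94, encoded by Hsp90b1, is the endoplasmic reticulum member of the HSP90 chaperones. N2a (neuro2a) is an established mouse line, both groups carried a miR expression vector that also encodes the green fluorescent protein EmGFP, and transfection was transient, so that untransfected cells may share a dish. The methods name several knockdown constructs and several control vectors without tying any to an array. The sample titles call the control arrays Vector, and they are called the empty vector here. The methods list the empty vector apart from a control vector with a non-targeting miR RNAi. With an empty vector as control, lower Grp94 and the expression of a miR RNAi as such cannot be told apart. No source used here says whether the arrays came from separate cultures.

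Only the authors' mean of each group was at hand. These means are log2 values centred within each transcript cluster, so a value above 0 means above the centre of that cluster and says nothing about how strongly one gene was expressed compared with another. No spread between arrays could be given. Among the 2395 listed transcript clusters, differences between knockdown and empty vector ran from -1.63 to 1.45 on the log2 scale, with a median of -0.16. Hsp90b1, the targeted gene, had a mean of 0.74 with the empty vector and of -0.78 in the knockdown, a difference of -1.52 on the log2 scale or 2.87-fold lower. That was the third lowest difference of the table. The labelled cell type could not be checked by expression level. Of 11 neuroblast and neuron markers searched, Gap43 and Stmn2 were listed, with log2 differences of -0.20 and -0.17, and 0 of 11 glial and fibroblast markers were listed. Their part in the results was not tested. In bulk RNA such as this, fewer cells of a kind and less RNA in each cell cannot be told apart.

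All 9 transcript clusters of the oxygen-sensing genes were lower in the knockdown. Of all listed transcript clusters 59.9% were lower and 40.1% were higher. A fold change of 1.3 was taken as the limit for counting, and 7 of the 9, which stand for 7 of the 8 listed genes, were lower past it. Of all listed transcript clusters, 16.1% were lower past 1.3-fold and 6.26% were higher past it. As the genes had been picked on this same contrast, nothing is read from these shares. The median difference of the 9 transcript clusters was -0.58 on the log2 scale, or 1.49-fold lower.

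**Figure D1:**
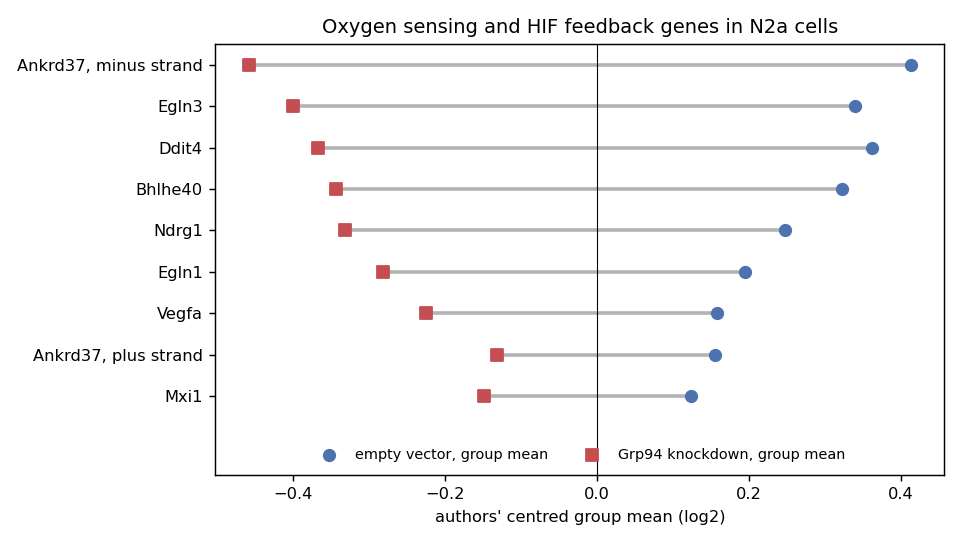
The horizontal axis gives the authors' centred group mean on the log2 scale for each transcript cluster of the 8 listed genes, with circles for the empty vector, squares for the Grp94 knockdown and a grey line joining both. Every circle lies right of 0, between 0.12 and 0.41, and every square lies left of it, between -0.46 and -0.13. In all 2395 listed transcript clusters the means of the groups lie on opposite sides of 0. The sides seen here thus follow from the centring once a gene is lower in the knockdown. No error bars are drawn because only group means were at hand.

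The oxygen sensors were represented by Egln1 and Egln3. Egln1 (also called PHD2) is the main HIF prolyl hydroxylase in most cells, and Egln3 (PHD3) is a hydroxylase that HIF itself strongly induces. The group means of Egln3 were 0.34 with the empty vector and -0.40 in the knockdown, a log2 difference of -0.74 and a 1.67-fold lower level. For Egln1 the means were 0.19 and -0.28, giving a log2 difference of -0.48 and a 1.39-fold lower level. The inducible sensor was thus the lower of the pair by 0.26 on the log2 scale, and without values per array this gap has no error. In the table Egln3 ranked 65 and Egln1 ranked 221 of 2395 from the lowest difference. The table places Egln3 at chr12:55279968-55304886 and Egln1 at chr8:127432486-127472954, both on the minus strand, in a genome build that is not given in the sources used here.

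Both hydroxylase genes hold the DNA core that HIF binds, ACGTG, in the 250 bases before their start site. The sequences are shown because Egln1 and Egln3 are the sensors and feedback targets of the pathway at once. They are from RefSeq in the build GRCm38.p6, on the minus strand, at chr8:124949255-124949504 for Egln1 and chr12:54203875-54204124 for Egln3, read 5′ to 3′ towards the gene. Capitals mark ACGTG and the variant core GCGTG on either strand.
Egln1: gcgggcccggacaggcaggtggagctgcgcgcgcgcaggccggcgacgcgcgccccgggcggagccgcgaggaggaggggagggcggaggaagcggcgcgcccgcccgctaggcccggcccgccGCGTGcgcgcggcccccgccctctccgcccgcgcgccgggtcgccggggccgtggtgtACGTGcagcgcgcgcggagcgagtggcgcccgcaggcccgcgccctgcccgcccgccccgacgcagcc
Egln3: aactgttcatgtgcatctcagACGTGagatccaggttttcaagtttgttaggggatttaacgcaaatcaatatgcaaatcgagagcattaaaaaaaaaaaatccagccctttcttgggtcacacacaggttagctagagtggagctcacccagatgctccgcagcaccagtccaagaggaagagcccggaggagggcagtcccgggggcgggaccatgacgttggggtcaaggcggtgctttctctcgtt
The ACGTG of Egln1 starts 68 bases before the start site and that of Egln3 starts 229 bases before it. Egln1 also has GCGTG at 126 bases before its start. The Egln1 core is part of the longer form TACGTG, and the Egln3 core is not.

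Among the feedback and target genes, Ankrd37 had the lowest difference of all 9 transcript clusters. Ankrd37 encodes a small ankyrin repeat protein and is a well-known HIF target. Its transcript cluster on the minus strand, at chr8:47082256-47085204 in the build of the table, had means of 0.41 and -0.46. The log2 difference was -0.87, a 1.83-fold lower level that ranked 34 of 2395. The second transcript cluster, on the plus strand at chr8:47084662-47114830, had means of 0.16 and -0.13 and a log2 difference of -0.29, or 1.22-fold lower, which is short of the limit. Both carry the symbols Ankrd37 and Lrp2bp, a neighbouring gene, so neither value can be assigned to Ankrd37 alone. The former spans 2949 bases and the latter 30169 bases. For comparison, RefSeq gives Ankrd37 a span of 3507 bases on the minus strand, and Lrp2bp a span of 18899 bases. The plus-strand cluster may thus stand for Lrp2bp, and it is counted here by its symbol only.

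The Ankrd37 promoter window is shown because it holds the most HIF cores of the windows examined. It lies at chr8:45999851-46000100 on the minus strand of GRCm38.p6, inside the RefSeq span of the gene, which ends at 46000414. Capitals have the same meaning as before.
Ankrd37: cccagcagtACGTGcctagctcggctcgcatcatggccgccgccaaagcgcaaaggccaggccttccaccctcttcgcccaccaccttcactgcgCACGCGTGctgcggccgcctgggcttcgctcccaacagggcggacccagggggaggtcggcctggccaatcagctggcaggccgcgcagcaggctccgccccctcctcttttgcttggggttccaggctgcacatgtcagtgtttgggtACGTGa
ACGTG starts at 241 and at 6 bases before this start site, and both copies are part of TACGTG. The variant GCGTG starts at 152 bases before it, and its copy on the opposite strand at 155 overlaps it.

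Bhlhe40 (also called DEC1) is a transcriptional repressor that links hypoxia with the circadian clock. Its group means were 0.32 and -0.34, with a log2 difference of -0.67 and a 1.59-fold lower level, at chr6:108610623-108616919 on the plus strand. Mxi1 encodes a repressor that competes with MYC for its partner MAX. Its means of 0.12 and -0.15 were the closest together of the listed genes, with a log2 difference of -0.27 and a 1.21-fold lower level, at chr19:53384996-53450300 on the plus strand. Mxi1 was the 1 listed gene that did not reach 1.3-fold by any transcript cluster. The log2 difference of Bhlhe40 was 0.39 below that of Mxi1. Kdm3a, a histone demethylase that needs oxygen for its reaction and is itself a HIF target, was not listed.

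Of the secreted signals, Vegfa, the main growth factor for blood vessels, had means of 0.16 and -0.22. The log2 difference was -0.38, or 1.304-fold lower, just past the limit of 0.3785 on the log2 scale. With all differences re-centred on the median of the table, Vegfa stood at -0.22 and Egln1 at -0.31, both short of the limit. Its transcript cluster has no position in the table. Vegfa was the closest of the members inside the limit, and the plus-strand transcript cluster of Ankrd37 was the closest outside it. Adm, which encodes the vessel-dilating peptide adrenomedullin, was not listed.

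The stress effectors were Ddit4 and Ndrg1. Ddit4 (also called REDD1) encodes an inhibitor of mTORC1 that is induced by hypoxia and by several other stresses. Its means were 0.36 with the empty vector and -0.37 in the knockdown, a log2 difference of -0.73 or 1.66-fold lower, and it ranked 69 of 2395. Ndrg1, a gene whose RNA accumulates in hypoxia and in differentiation, had means of 0.25 and -0.33 with a log2 difference of -0.58, or 1.49-fold lower. The table places Ddit4 at chr10:59412423-59414518 and Ndrg1 at chr15:66760880-66801201, both on the minus strand. Their log2 differences were 0.15 apart, Ddit4 being the lower.

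The Ddit4 window is shown because Ddit4 is the shortest gene of the group and its window holds both forms of the HIF core. It lies at chr10:59951771-59952020 on the minus strand of GRCm38.p6.
Ddit4: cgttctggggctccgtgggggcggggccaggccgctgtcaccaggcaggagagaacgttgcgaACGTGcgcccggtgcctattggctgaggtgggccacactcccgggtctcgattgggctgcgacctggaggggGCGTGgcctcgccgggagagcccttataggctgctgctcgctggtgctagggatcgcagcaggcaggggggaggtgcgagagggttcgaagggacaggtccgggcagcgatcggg
ACGTG starts 187 bases before the start site and GCGTG starts 115 bases before it. CCAAT, the box bound by the factor NF-Y, lies between them on the opposite strand at 170 and at 137 bases before the start.

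In the order of their log2 differences the transcript clusters ran from the minus-strand cluster of Ankrd37 through Egln3, Ddit4, Bhlhe40, Ndrg1, Egln1, Vegfa and the plus-strand cluster of Ankrd37 to Mxi1. Egln3 and Ddit4 were nearly level. Whether any neighbours in this order differ beyond the spread between arrays could not be tested. Ankrd37 by its minus-strand cluster, Egln3, Ddit4 and Bhlhe40 lay beyond the 5th percentile of all differences in the table, which was -0.60. Ndrg1 and Egln1 lay between it and the 10th percentile, at -0.46. The 8 transcript clusters with a probe count in the table were measured by 25 to 48 probes each, from 25 for Ddit4 and Bhlhe40 to 48 for Mxi1, and the table gives no count for Vegfa.

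**Figure D2:**
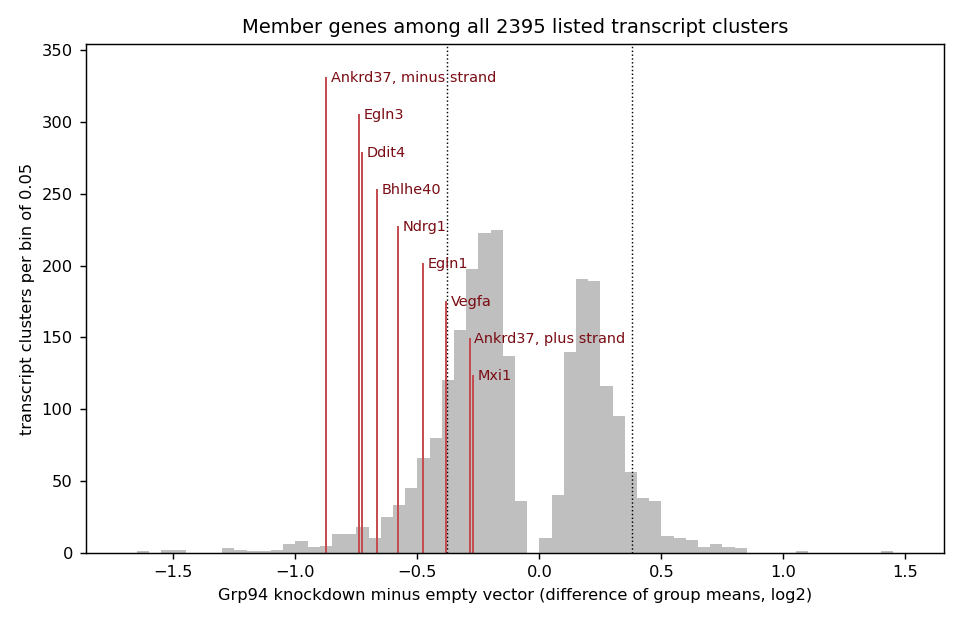
The histogram shows the difference of the group means, knockdown minus empty vector on the log2 scale, for all 2395 listed transcript clusters, and red lines mark the oxygen-sensing genes (line heights only keep the names apart). Dotted lines stand at 1.3-fold, and the table, which holds only transcript clusters that passed the authors' test, has few around 0. The red lines run from -0.87 to -0.27, all left of 0.

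The promoter windows of RefSeq were searched for the HIF core in all members that have one. A window holds 250 bases before and 50 after a start site, and 6 of the 8 listed genes had 9 windows in all. Bhlhe40 and Ndrg1 have no window there. ACGTG, on either strand, was present in at least 1 window of 6 of the 6 genes, against 21.8% of the 27025 genes with a window. In windows with GC content in the range of these genes, from 54.7% to 86%, it was present in 27.1% of genes. In the glycolysis, mitochondrial and other HIF-target lists described below, 22 of 34 listed genes with a window held it (64.7%). Among the genes of the table with a window, it was found in 31.8% of those lower in the knockdown and in 29.4% of those higher. ACGTG is contained in the E-box CACGTG and in TACGTG, and matches of these forms are counted in it as well. The broader search for ACGTG or GCGTG found 6 of 6 genes, against 46.7% of all genes with a window, 65.8% of genes in the same range of GC content and 66.0% both of lower and of higher genes of the table. In the other HIF-linked lists it found 28 of 34 genes (82.4%). These counts describe letters in a window and do not show that HIF was bound.

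Vegfa and Mxi1 each matched in only some of their windows. Vegfa has ACGTG on the opposite strand 211 bases before the second of its start sites, which lies inside the gene, and none at the first. Mxi1 has it 66 bases before the second start site and 25 before the third, and none at the first, and those 2 windows overlap. The longer TACGTG was found for 2 of the 6 genes, Ankrd37 and Egln1, against 3.67% of all genes with a window. Of the 34 genes of the other HIF-linked lists with a window, 8 held it (23.5%). The E-box CACGTG and TGATGNAA, a form bound by ATF4, were found in 0 of the 9 windows, against 7.15% and 3.97% of all windows. At such shares, 9 windows are too few to show a lack of these forms. CCAAT was present for 3 of the 6 genes, namely Ankrd37, Ddit4 and Vegfa, against 41.1% of all genes. The unlisted Kdm3a and Adm have GCGTG and no ACGTG in their windows.

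**Figure D3:**
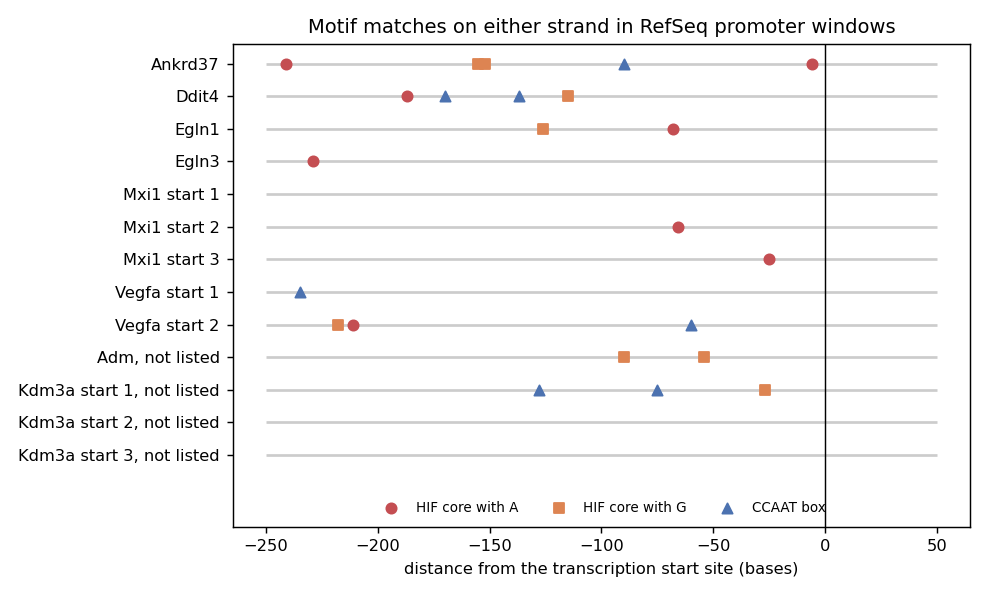
Each grey line is a RefSeq promoter window, from 250 bases before to 50 bases after a start site at 0 on the horizontal axis in bases, and symbols mark the first base of each match on either strand (circles ACGTG, squares GCGTG, triangles CCAAT). The ACGTG matches lie between 241 and 6 bases before a start site, and all 6 listed genes with a window have at least 1; the windows of the unlisted Adm and Kdm3a have none.

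Partners and relatives of these genes were looked up in the same table. Old and new symbols of a gene were both searched, so a list can hold more symbols than genes. Of 111 symbols in 11 lists of partners and relatives, 23 were listed, 16 of them lower in the knockdown and 7 higher, with 6 lower and 4 higher past 1.3-fold. The shares over all listed transcript clusters were 59.9% lower, 40.1% higher, 16.1% lower past 1.3-fold and 6.26% higher past it. Neither Hif1a nor Epas1, the genes of the main alpha subunits, nor their partner Arnt was listed. Of the 8 genes searched for HIF subunits and relatives, Arntl (also called BMAL1), the partner of CLOCK, was the 1 listed, with a log2 difference of -0.29. Of the other hydroxylases, the membrane-bound P4htm was listed at -0.28, and Egln2 and the asparaginyl hydroxylase Hif1an were not. None of 7 symbols of the VHL ubiquitin ligase and none of 13 symbols of the MYC, MAX and MXD network was listed.

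Of 11 symbols of coactivators and modulators searched, 2 were listed, the paralogous acetyltransferases Crebbp and Ep300 that HIF recruits. Both were higher in the knockdown, with log2 differences of 0.41 for Crebbp, past 1.3-fold, and 0.27 for Ep300, short of it. Of 17 genes of JmjC proteins, the wider family of Kdm3a, 5 were listed, 4 lower and 1 higher, with a median of -0.22. The largest were Kdm4b at -0.55, Jmjd6 at -0.30 and Kdm5b at 0.28. Of 13 clock genes related to Bhlhe40, 3 were lower and 2 higher. Nfil3, a repressor of the clock output, had a log2 difference of -0.59, Cry2 of -0.39, and Nr1d1, which encodes the repressor REV-ERBα and shares its transcript cluster with Thra, of 0.41. The direction was thus mixed among the relatives of Kdm3a and of Bhlhe40.

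Among receptors and signals, Nrp1, a coreceptor of VEGF, was the 1 listed of 10 symbols of VEGF ligands and receptors. It was higher by 0.41 on the log2 scale, opposite in direction to Vegfa. Adm was absent from the table while its relative Adm2 (intermedin) was listed with means of 0.42 and -0.55. The log2 difference of Adm2 was -0.97, or 1.96-fold lower, below that of every member. Ramp2, a subunit of the adrenomedullin receptors, was higher at 0.43. All 3 relatives of Ndrg1 were listed and lower. Ndrg2, with means of 0.46 and -0.61, had a log2 difference of -1.07 and was 2.10-fold lower, a wider difference than that of Ndrg1, and Ndrg4 and Ndrg3 were at -0.37 and -0.21. On the mTORC1 axis of Ddit4, 3 of 19 genes were listed, all lower, namely the stress-induced mTORC1 inhibitor Sesn2 at -0.47, the translation repressor Eif4ebp1 at -0.36 and Sesn3 at -0.29.

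The oxygen-sensing genes were next set beside other HIF-linked genes, with each gene taken as the mean of its transcript clusters. For Ankrd37 both clusters were included. By gene, 8 of 8 listed members were lower and 7 past 1.3-fold, with a median of -0.58. Of 31 symbols of glycolysis and glucose uptake 24 were listed, all lower, 16 of them past 1.3-fold and with a median of -0.56. The widest were the aldolase Aldoc at -1.24, the glycogen synthase Gys1 at -1.12 and the enolase Eno2 at -1.03. Of 10 mitochondrial and mitophagy genes linked to hypoxia 6 were listed, all lower, with a median of -0.66, led by the mitophagy receptor Bnip3 at -1.10, Cox4i2 at -0.80 and the protease Lonp1 at -0.70. Of 28 symbols of other HIF targets 14 were listed, all lower, with a median of -0.48. These were led by the oxidoreductase Ero1l at -0.97, Anxa2 at -0.76 and Stc2 at -0.64. The sensors and feedback genes thus lay among the metabolic targets in size, and no test of a difference between the lists was run. These lists, too, were drawn up with results of these data known. Of all listed transcript clusters 59.9% were lower and 16.1% were lower past 1.3-fold, and nothing is read from the counts beside these shares. For the numbers listed of those searched, no share over the whole array was at hand.

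**Figure D4:**
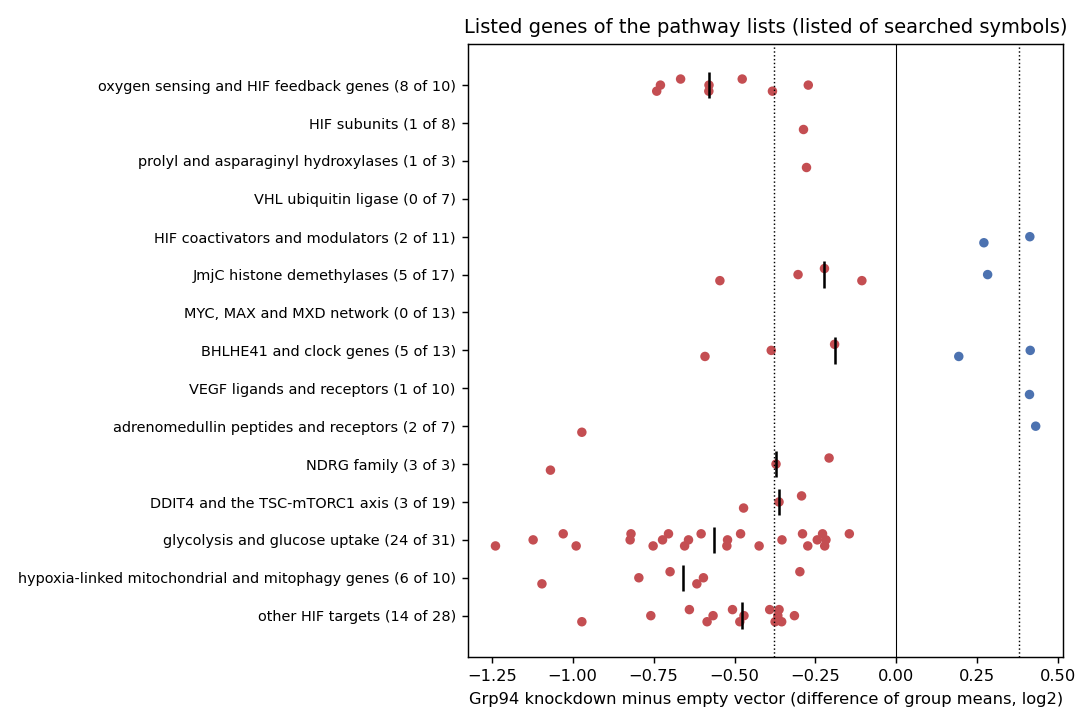
Each point is a listed gene of the list named at the left (listed of searched symbols in parentheses), placed by its difference of group means, knockdown minus empty vector, on the log2 scale; red is lower, blue is higher, black bars are medians of lists with at least 3 listed genes and dotted lines stand at 1.3-fold. The top row and the 3 bottom rows lie wholly left of 0, with medians of -0.58, -0.56, -0.66 and -0.48, and points right of 0 occur among the coactivators, demethylases, clock genes, VEGF receptors and adrenomedullin receptors.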

How the data were processed

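Total RNA of transfected N2a cells was hybridised to Affymetrix Mouse Gene 1.0 ST arrays and analysed by the authors in Agilent GeneSpring GX, with transcripts under the 20th percentile of expression left out. The deposited table holds, for each of 2395 transcript clusters that passed the authors' test, a log2 mean of each group, centred by the authors within the cluster, and their p-values, q-values, fold changes and directions, which were not used. The limit that the authors named for this list was 0.01. The paper counts far fewer differentially expressed genes for this contrast, so a listed transcript cluster need not be among them. Array normalization and genome build are not given in the sources used here. The number of probes is another deposited column.

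The log2 mean of the empty vector was subtracted from that of the knockdown. With group means alone, no test, standard error or removal of single arrays was possible, and the number of arrays limits precision. Differences past 1.3-fold were counted. The counting was tested on simulated data. All listed members were named, with Hsp90b1 and up to 3 genes of the widest difference in each list. Members and lists were chosen with earlier results of these data known. Rows were matched by symbol (2351 rows had one and 258 had several). Promoter windows were RefSeq's (GRCm38.p6, 32851 windows) and were searched on both strands. Other thresholds, a re-centred scale, rows with 1 symbol and other motif forms were tried. Python 3.11.15, numpy 2.4.6, pandas 2.3.3 and matplotlib 3.10.9 were used.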

Additional observations from a re-analysis of the deposited data

How the results depend on the processing

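The count of member transcript clusters lower in the knockdown, 7 past 1.3-fold, was 9 at 1.2-fold and with no threshold, 4 past 1.5-fold and 0 past 2-fold. Over all transcript clusters the count of 385 became 761 at 1.2-fold, 128 at 1.5-fold, 20 at 2-fold and 1434 with no threshold. When all differences were shifted so that the median of the table, -0.16 on the log2 scale, became 0, the counts were 5 members, Egln1 and Vegfa no longer passing, and 159 in all, and the median of the members moved from -0.58 to -0.41. All 9 member transcript clusters stayed below 0 on that scale, from -0.71 for Ankrd37 to -0.11 for Mxi1. With transcript clusters of 1 symbol only, 6 members and 357 in all were past 1.3-fold, and 378 with 1 transcript cluster per symbol. The 6 listed genes with a HIF core in a promoter window were 6 with ACGTG alone or with upstream bases only, and 2 with TACGTG alone. No paired analysis was possible because the table holds group means and no values per array, and for the same reason no array was left out in turn. Genes that were not listed may have failed the expression filter or the authors' test, and which of these applied was not examined.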

Other observations

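The longer HIF core TACGTG was searched in the RefSeq windows of all genes of the table. It was present for 67 of 1033 genes lower in the knockdown (6.49%) and for 15 of 623 genes higher in it (2.41%), against 3.67% of all genes with a window. The shorter ACGTG differed less between these groups, at 31.8% and 29.4% of genes. The E-box CACGTG was more frequent among the higher genes, at 15.6% against 9.68%. Median GC content of the windows was 59.3% for the lower genes and 62% for the higher ones, and its part in these shares was not tested.

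Of the 67 lower genes with TACGTG, 11 were in the lists used here and 56 were in none, and 10 of the latter were lower past 1.3-fold. Chosen after their values were seen, the 5 with the widest log2 differences were Grhpr, which encodes a reductase of glyoxylate, at -0.80, Selenbp2 at -0.78, Selenbp1 at -0.76, Prkcz, an atypical protein kinase C, at -0.71, and Ppp1r15a (GADD34), a phosphatase subunit of the stress response, at -0.70. Selenbp1 shares its transcript cluster with Selenbp2, whose value is the mean of that cluster and another of its own. The median log2 difference of the 67 genes was -0.29, beside -0.28 for all transcript clusters lower in the knockdown.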
